A study of Mus musculus with 38 samples.

Results

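Tuft cells are rare chemosensory cells of the gut lining, and the 9 genes described here (Dclk1, Trpm5, Pou2f3, Il25, Avil, Gfi1b, Alox5, Ltc4s and Sh2d6) are expressed in them. They were taken from 46078 gene rows by their symbols, each of which matched 1 row. A tuft cell reads luminal signals through a taste-type cascade of G protein, phospholipase and calcium release that ends at the cation channel encoded by Trpm5. It answers with the cytokine encoded by Il25, which acts on innate lymphoid cells of type 2 immunity, and with leukotrienes made by way of Alox5 and Ltc4s. The transcription factor encoded by Pou2f3 is required for the lineage.

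The study measured RNA in 38 libraries of mouse intestinal epithelial cells (C57BL/6), 1 animal each. KO mice carried floxed Hk2, the gene of the glycolytic enzyme hexokinase 2, and Cre recombinase under the Villin promoter, which is active across the epithelium and so in tuft cells too. Controls, called WT, were Hk2 fl/fl littermates and thus carried the floxed alleles without Cre. Mice were untreated (day 0, 4 WT and 5 KO) or had drunk 1.5% dextran sodium sulfate (DSS), which injures the colonic epithelium, for 3 days (7 WT and 8 KO) or 7 days (7 WT and 7 KO). The DSS mice were males aged 10 to 12 weeks, and the labels give 9 to 11 or 86 to 92 weeks for mice studied without DSS, without saying which applied on day 0. The series text names colon tissue, while the sample labels name isolated epithelial cells.

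Total counts ran from 10503352 to 60644284 per library, so that 3 counts, taken as the detection floor, equalled 0.0495 to 0.286 in counts-per-million units (CPM). The day 0 libraries were the shallowest in part (KO 10503352 to 17488676), and all 9 of them carry another file prefix than the libraries of days 3 and 7. Whatever sets the library series apart therefore cannot be told apart from the day where day 0 is compared. Hk2 itself was at 254 to 449 scaled CPM in WT and 33.1 to 118 in KO on day 0, at 97.0 to 220.5 in WT and 68.4 to 435 in KO on day 3, and at 228 to 611 in WT and 56.1 to 268 in KO on day 7. The log2 differences of KO from WT were -2.20 (adjusted p = 0.0331), -0.27 (adjusted p = 0.802) and -1.25 (adjusted p = 0.291, edgeR). The highest KO value of day 3 belonged to the library labelled d3_KO_345, which goes against its label, and tests that include it are also given without it. Of the other KO libraries, 3 of day 3 (119.9 to 128) and d7_KO_420 (268) lay inside the WT range of their day. Levels below are CPM scaled by the trimmed mean of M values (TMM) over all libraries, with SD over animals.

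Sequence upstream is shown for 3 of the members that moved together from library to library. Other members did so as well, and Alox5 moved with Avil and Dclk1 more closely than Trpm5 did. RefSeq windows of 300 bases, from 250 before to 50 after a gene's start, were on file for 7 of the 9 members (8 windows, as Dclk1 has a second start inside the gene). The 250 upstream bases are printed 5′ to 3′ on the strand of the gene (GRCm38.p6), for the internal start of Dclk1 (chr3:55461478-55461727, plus strand), for Trpm5 (chr7:143094643-143094892, minus strand) and for Avil (chr10:127000459-127000708, plus strand). Capitals mark matches, on either strand, to motifs named below.
Dclk1: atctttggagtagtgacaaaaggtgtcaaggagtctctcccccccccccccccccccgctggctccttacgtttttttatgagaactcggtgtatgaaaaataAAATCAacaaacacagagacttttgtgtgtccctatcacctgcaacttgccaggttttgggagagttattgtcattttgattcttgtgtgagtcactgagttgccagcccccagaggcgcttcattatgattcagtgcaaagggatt
Trpm5: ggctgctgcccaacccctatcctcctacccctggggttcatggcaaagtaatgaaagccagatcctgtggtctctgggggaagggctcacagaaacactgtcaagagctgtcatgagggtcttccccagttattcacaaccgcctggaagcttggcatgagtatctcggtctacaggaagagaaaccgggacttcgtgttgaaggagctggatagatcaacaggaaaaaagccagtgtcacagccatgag
Avil: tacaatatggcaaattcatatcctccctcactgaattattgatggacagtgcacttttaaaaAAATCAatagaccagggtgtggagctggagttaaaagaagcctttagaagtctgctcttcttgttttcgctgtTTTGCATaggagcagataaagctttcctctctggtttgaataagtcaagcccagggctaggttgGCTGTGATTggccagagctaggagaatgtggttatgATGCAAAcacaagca
The octamer ATGCAAAT, the motif of POU factors, was in 0 of the 8 windows and in 1.74% of all 32851 RefSeq windows, and ATGCNAAT was in 0 of 8 and in 3.15%. ATGCAAA, which lacks the last base of the octamer and overlaps it, matched at 2 places upstream of Avil, 1 on each strand, and was in 4.63% of all windows. AAATCA, the core read by the GFI1 family to which the Gfi1b protein belongs, was in 3 of 8 windows (Dclk1 internal start, Avil and Gfi1b) and in 14% of all. The longer form AATCACNGC was found in Avil alone of the 8, on the reverse strand as GCTGTGATT, and in 0.919% of all windows. The Trpm5 window held none of these, nor did the window at the other start of Dclk1, whose sequence is not printed.

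Before treatment, the members spanned a wide range of levels. Per kilobase of exon, the order in WT on day 0 was Sh2d6 (3.53 ± 0.50 CPM per kb, n = 4), Trpm5 (3.41 ± 0.55), Avil (3.29 ± 0.38), Dclk1 (2.00 ± 0.040), Ltc4s (1.61 ± 0.21), Alox5 (1.13 ± 0.042), Pou2f3 (0.709 ± 0.11), Il25 (0.215 ± 0.066) and Gfi1b (0.198 ± 0.063). Sh2d6, Trpm5 and Avil lay within each other's SD, as did Il25 and Gfi1b. These values divide by the length of all annotated exons of a gene, 15296 bases for Dclk1, which has a second start. The place of a gene in the order depends on that length. By WT day 7 the order was led by Sh2d6 (4.03 ± 0.74, n = 7), followed at a distance by Avil (1.27 ± 0.24), Ltc4s (0.946 ± 0.18) and Trpm5 (0.774 ± 0.26), with Dclk1 (0.229 ± 0.036) now level with Pou2f3 (0.237 ± 0.044).

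**Figure D1:**
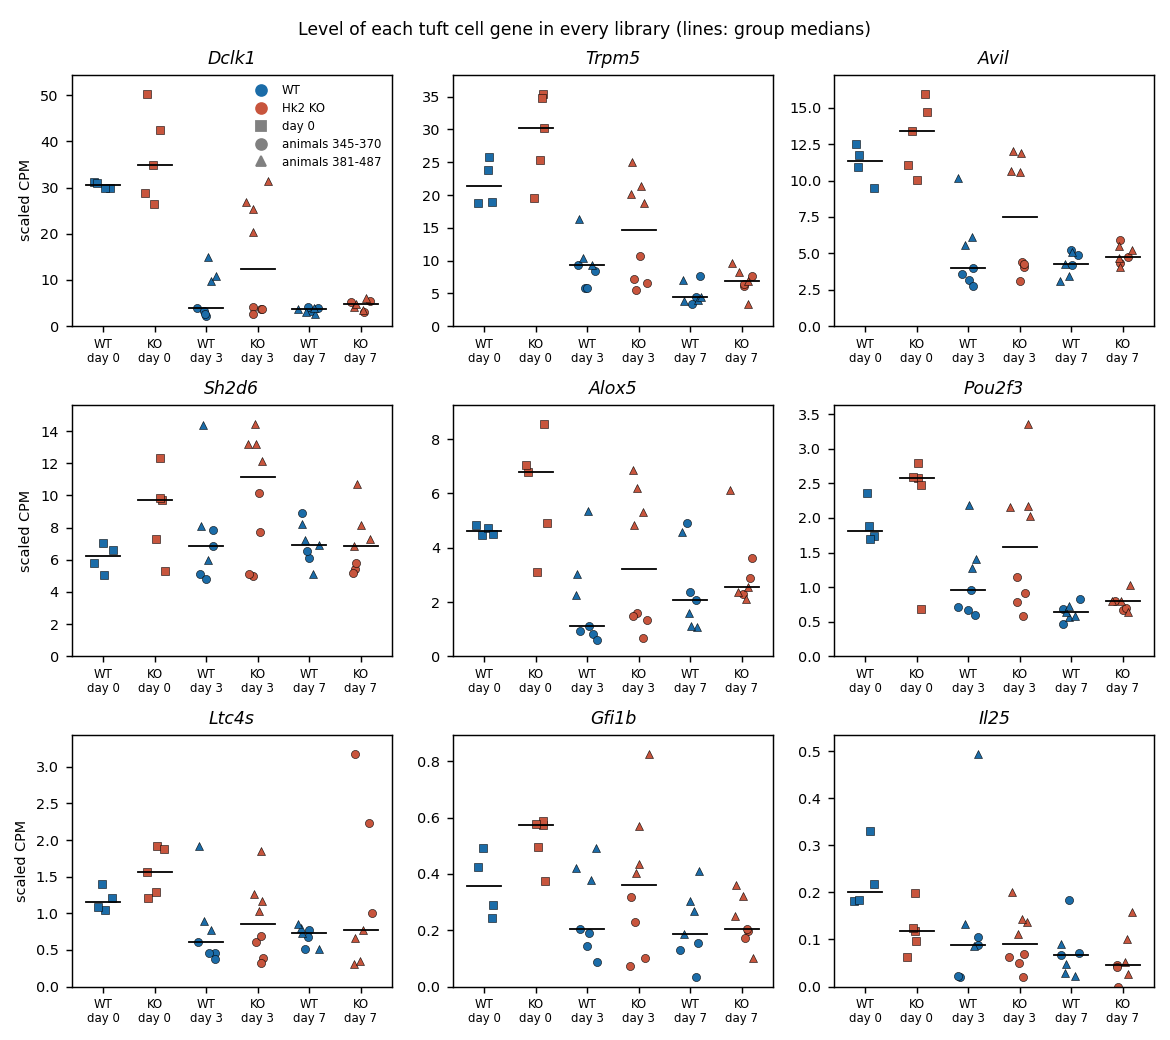
Scaled CPM of each of the 9 genes (vertical axes, linear, each from 0) in the 6 genotype and day groups; each symbol is 1 library, lines are group medians, and symbol shape gives day 0 or the animal number range. Dclk1 sits at 26.5 to 50.3 CPM on day 0 and at 2.63 to 5.99 on day 7, whereas Sh2d6 spans 5.07 to 12.3 and 5.12 to 10.7.

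Dclk1, which encodes a doublecortin-domain kinase and is the most used marker of mouse tuft cells, showed the widest range over the study. Its gene lies on chromosome 3 (55242364 to 55539068, plus strand). WT libraries on day 0 read 31.14, 30.96, 30.005 and 29.98 scaled CPM, and KO libraries 28.9, 34.8, 26.5, 50.3 and 42.6. On day 3 its values were 2.24, 3.90 and 15.1 (lowest, median and highest of 7) in WT and 2.54, 12.3 and 31.3 (of 8) in KO. On day 7 they were 2.63, 3.65 and 4.12 in WT and 2.97, 4.80 and 5.99 in KO. Day 0 and day 7 thus did not overlap in either genotype, while day 3 libraries reached from below the day 7 range up to the day 0 range of KO. Between day 0 and day 7 it fell by 3.15 on the log2 scale in WT (SE 0.13, adjusted p = 8.22e-10, edgeR quasi-likelihood test with Benjamini-Hochberg adjustment over all genes) and by 3.02 in KO (SE 0.20, adjusted p = 4.4e-08). By day 3 it had fallen by 2.20 in WT (SE 0.45, adjusted p = 0.00127). In KO the day 3 value, -1.30 (SE 0.57), did not pass (adjusted p = 0.0717), nor did it without d3_KO_345 (-1.17, adjusted p = 0.100), but it did without d3_KO_387 (-1.55, adjusted p = 0.0374).

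Trpm5 (chromosome 7, 143069153 to 143094642, minus strand) encodes the calcium-activated channel of the taste-type cascade. It stood at 18.8 to 25.8 CPM in WT and 19.5 to 35.4 in KO on day 0, at 5.83, 9.30 and 16.4 in WT and 5.45, 14.7 and 25.1 in KO on day 3, and at 3.36, 4.38 and 7.60 in WT and 3.34, 6.91 and 9.67 in KO on day 7. WT levels fell without overlap from day 0 to day 3, by 1.25 on the log2 scale (SE 0.24, adjusted p = 0.000764), and to day 7, by 2.16 (SE 0.22, adjusted p = 3.58e-06). In KO they fell by 2.09 to day 7 (SE 0.22, adjusted p = 3.61e-06), again without overlap. Trpm5 was the single member to pass in KO from day 0 to day 3, where it fell by 1.00 (SE 0.35, adjusted p = 0.0277), while 7 of the 8 tested members had a value below 0. In 1 fit of all libraries Dclk1 and Avil passed as well (adjusted p = 0.0166 and 0.0224). The Trpm5 call held without d3_KO_345 (-0.90, adjusted p = 0.0386). The call was lost (adjusted p up to 0.0677) without d0_KO_32, d0_KO_54 or d0_KO_60, as the titles name the animals.

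Of the regulators, Pou2f3 (chromosome 9, 43123939 to 43210369, minus strand) was at 1.70 to 2.36 CPM in WT on day 0 and 0.462 to 0.828 on day 7, without overlap, and fell by 1.596 on the log2 scale (SE 0.23, adjusted p = 6.95e-05). Its KO levels were 2.80, 2.58, 0.686, 2.60 and 2.48 on day 0 and 0.641 to 1.02 on day 7, a fall by 1.53 (SE 0.29, adjusted p = 0.000591). d0_KO_53 had the lowest Pou2f3, Dclk1, Trpm5, Avil, Alox5, Sh2d6 and Gfi1b of the 5 KO libraries of day 0, and its Pou2f3 lay inside the day 7 range. Gfi1b, which encodes a zinc-finger repressor (chromosome 2, 28609450 to 28621982, minus strand), was low throughout, with 2 to 36 counts per library. In KO it fell from 0.374 to 0.587 CPM on day 0 to 0.101 to 0.362 on day 7, by 1.20 on the log2 scale (SE 0.32, adjusted p = 0.00624), without overlap. In WT its value, -0.88 (SE 0.49), did not pass (adjusted p = 0.142).

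Avil encodes advillin, an actin-binding protein of the villin family (chromosome 10, 127000709 to 127020994, plus strand). Its level was 9.50 to 12.5 CPM in WT and 10.0 to 16.0 in KO on day 0, and 3.10 to 5.20 in WT and 4.04 to 5.93 in KO on day 7. Both falls were without overlap, by 1.40 (SE 0.17, adjusted p = 1.52e-05) in WT and by 1.43 (SE 0.15, adjusted p = 2.38e-06) in KO. In WT it had fallen by 1.17 (SE 0.30, adjusted p = 0.00587) by day 3, when values were 2.76, 4.0 and 10.2.

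Sh2d6, which encodes a small protein with an SH2 domain (chromosome 6, 72513644 to 72521634, minus strand), passed the test in none of the 11 comparisons. Its values in WT were 5.07 to 7.03 CPM on day 0, 4.79, 6.85 and 14.4 on day 3, and 5.12, 6.90 and 8.92 on day 7, with overlap between all days. In KO they were 5.30 to 12.3, then 5.01, 11.1 and 14.4, then 5.18, 6.88 and 10.7. The log2 differences of day 7 from day 0 were 0.16 (SE 0.17, adjusted p = 0.443) in WT and -0.35 (SE 0.22, adjusted p = 0.203) in KO. The sign of the WT value turned when libraries were scaled to 15 pan-epithelial genes (-0.27), and under that scaling the KO value passed (-0.79, adjusted p = 0.00371). The same scaling shifted the median of all genes to -0.43 in WT and -0.44 in KO, so that relative to it Sh2d6 stayed above in WT and below in KO.

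The leukotriene enzymes varied widely among the treated animals. Alox5, which encodes 5-lipoxygenase (chromosome 6, 116410077 to 116461178, minus strand), was at 4.48 to 4.85 CPM in WT and 3.12 to 8.55 in KO on day 0. On day 3 it read 0.596, 1.11 and 5.37 in WT and 0.679, 3.21 and 6.85 in KO, with overlap with day 0. The WT value, -1.26 (SE 0.49), narrowly did not pass (adjusted p = 0.0516), but it did in each of the 6 alternatives of scaling, filter, test and fit (adjusted p from 0.00601 to 0.0496) and without d3_WT_381 or d3_WT_487. The KO value of day 3 was -0.77 (SE 0.50, adjusted p = 0.218). On day 7 it read 1.08, 2.08 and 4.91 in WT and 2.11, 2.55 and 6.14 in KO, which overlapped day 0. The KO difference passed, a fall by 0.98 on the log2 scale (SE 0.30, adjusted p = 0.0135), and the WT value, -0.89 (SE 0.39), did not (adjusted p = 0.0675), though it passed without d7_WT_356 or d7_WT_419 (adjusted p = 0.0172 and 0.0220). Without d7_KO_420 the KO value was -1.21 (adjusted p = 0.000674). In a fit of all 38 libraries the KO value no longer passed (adjusted p = 0.0987). Ltc4s, which encodes leukotriene C4 synthase (chromosome 11, 50236469 to 50238616, minus strand), fell in WT from 1.04 to 1.39 CPM on day 0 to 0.515 to 0.854 on day 7, by 0.79 (SE 0.24, adjusted p = 0.0126). This call was lost in the fit of all libraries (adjusted p = 0.168) and with no filter on low counts (adjusted p = 0.0625). Its KO values on day 7 ran from 0.311 to 3.17, and the difference of -0.38 (SE 0.54) did not pass (adjusted p = 0.57). The reads were counted without strand, and 192 exon bases of Ltc4s (26.1%) are shared with the antisense gene Gm26542, so that reads of these genes cannot be told apart there.

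Il25 (chromosome 14, 54932695 to 54935837, plus strand) was at the edge of detection, with 0 to 10 counts per library, and was left out of every test by the filter on low counts. It had 3 to 9 counts in WT on day 0 (0.182 to 0.330 CPM) and 1 or 2 in the shallower KO libraries. The highest level, 0.493 CPM from 9 counts, was in d3_WT_381, and the 1 library with no Il25 count was d7_KO_367. With no filter on low counts, the day 7 value against day 0 in WT was -1.46 (SE 0.56, adjusted p = 0.0415). In the other 10 comparisons a difference was not detectable at this depth (adjusted p from 0.244 to 1.00).

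Counted over the comparisons with day 0, 3 of 8 tested members were lower and 0 higher on day 3 in WT, where 25.6% of all genes were called lower. Without d3_WT_381 the count was 6. In KO on day 3, 1 of 8 was lower, against 23.7% of all genes, and the count was 4 without d3_KO_387 and 0 without d0_KO_32, d0_KO_54 or d0_KO_60. Dclk1 and Trpm5 lay lower on day 3 in WT without overlap, against 18.3% of all genes. On day 7, 5 of 8 in WT and 6 of 8 in KO were lower, against 29.2% and 27.3% of all genes. The median log2 change of the tested members to day 7 was -1.15 in WT and -1.32 in KO, and that of all genes was 0.01 in both. Without overlap between the libraries, 5 members were lower on day 7 in WT (Dclk1, Trpm5, Pou2f3, Avil and Ltc4s) and 4 in KO (Dclk1, Trpm5, Avil and Gfi1b), against 20.6% and 16.4% of all genes. Scaling to the pan-epithelial genes shifted the median of all genes to -0.43 in WT and -0.44 in KO, and the share of called genes that were higher from 48.8% to 18.1% in WT and from 50.0% to 16.2% in KO. For day 3 against day 0 the same scaling gave medians of -0.26 and -0.41, and moved that share from 44.3% to 15.7% in WT and from 48.8% to 9.02% in KO. The called members' direction did not turn under any scaling, and Dclk1, Trpm5, Avil and Pou2f3 were below the shifted median on day 7 in both genotypes. Other marker sums also moved between day 0 and day 7. The median sum of goblet cell genes went from 26051 to 8387 CPM in WT and from 29973 to 7700.4 in KO, and that of stem cell genes from 72.6 to 12.4 and from 79.5 to 33.1. The median sum of cycling genes also fell in both genotypes. Median sums of other epithelial lists rose. Enteroendocrine genes went from 216 to 357 CPM in WT and from 360 to 716 in KO. Colonocyte genes went from 5640 to 10689 and from 6673 to 9236, and pan-epithelial genes from 15909 to 22372 and from 16122 to 21762. Neutrophil genes went from 26.9 to 315 and from 16.9 to 185. The list called small intestine genes (Fabp6, Lct, Sis, Defa24, Lyz1, Apoa4 and Reg3g) went from 84.97 to 1866 and from 220.0 to 1619. The sum does not tell which of its genes rose. The part of these marker sums in the members' values was not tested. In bulk samples, fewer tuft cells and less of these RNAs per cell cannot be told apart.

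**Figure D2:**
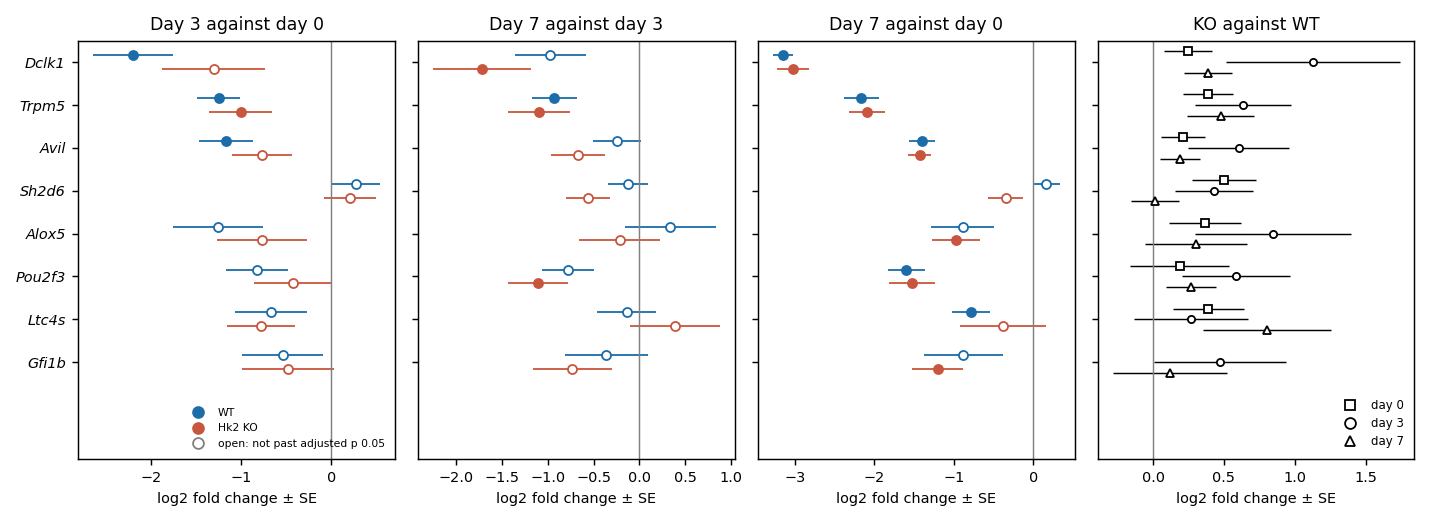
Log2 fold changes with SE of the 8 members that entered the tests (rows), for day 3 against day 0, day 7 against day 3 and day 7 against day 0 in WT (blue) and KO (red), filled where the adjusted p was under 0.05, and for KO against WT on each day (black). The day 7 values of Dclk1 are near -3 in both genotypes, Sh2d6 lies near 0, and the KO against WT values are open.

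Between day 3 and day 7, days that share a file prefix, 1 of 8 members fell in WT, against 8.70% of all genes called lower. This was Trpm5, by 0.93 on the log2 scale (SE 0.25, adjusted p = 0.0158), and it held without any single library. With the animal number range, described below, as a term Trpm5 also passed (adjusted p = 0.0131), and so did Pou2f3 (adjusted p = 0.0431). That range was chosen on the day 3 values of these genes, so fits with it as a term add no support. Dclk1 (-0.97, SE 0.39, adjusted p = 0.0912) and Pou2f3 (-0.78, SE 0.28, adjusted p = 0.0650) did not pass, although both did without 1 library of day 3, Dclk1 without d3_WT_352 (adjusted p = 0.0453) and Pou2f3 without d3_WT_348 (0.0421). Scaling to the pan-epithelial genes shifted the median of all genes to -0.13 in WT and the share of called genes that were higher from 55.0% to 40.7%. In KO, 3 of 8 fell, against 8.83%: Dclk1 by 1.72 (SE 0.53, adjusted p = 0.0323), Trpm5 by 1.10 (SE 0.34, adjusted p = 0.0309) and Pou2f3 by 1.11 (SE 0.33, adjusted p = 0.0251). Dclk1 lost its call without any 1 of d3_KO_385, d3_KO_387, d3_KO_388, d3_KO_392, d7_KO_367, d7_KO_368, d7_KO_421 and d7_KO_422 (adjusted p up to 0.0667). Trpm5 lost it without any 1 of the same 4 day 3 libraries or of d7_KO_366 and d7_KO_367 (up to 0.0622), and Pou2f3 without d7_KO_367 (0.0520). Without d3_KO_345, the library whose Hk2 goes against its label, Sh2d6 passed as well (-0.66, SE 0.22, adjusted p = 0.0419), and the other 3 members kept their calls (Dclk1 at -1.87, adjusted p = 0.0170). With the animal number range as a term, under the same limit, 3 of 8 passed as well, but Dclk1 was not among them (-1.20, adjusted p = 0.0652) and Sh2d6 was (-0.57, adjusted p = 0.0160). The difference between the genotypes in this change was tested as an interaction, and 0 of 8 members passed at the adjusted or the unadjusted threshold with edgeR, and 0 with DESeq2, against 0% and 2.69% of all genes by edgeR. Without d3_KO_345 or d7_KO_420 the adjusted count stayed 0.

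The day 3 values fell apart by the animal number in the titles, a split seen only after the values were known and whose meaning the labels do not give. The 8 lower-numbered libraries, from d3_KO_345 to d3_WT_353 (4 WT and 4 KO), had Dclk1 at 2.24 to 4.22 CPM. Of the 7 higher-numbered ones, d3_WT_381, d3_WT_486 and d3_WT_487 had 15.1, 9.78 and 10.8, and d3_KO_385, d3_KO_387, d3_KO_388 and d3_KO_392 had 26.9, 31.3, 25.3 and 20.3. The upper 7 libraries lay above the lower 8 with no overlap for Dclk1, Avil, Alox5 and Pou2f3, 4 of the 6 members with a mean of at least 1 CPM on that day. Of 12651 genes with that mean, 32 (0.253%) were higher without overlap in the upper numbers and 33 (0.261%) were lower. Among the 32, 13 were in the tuft lists, among them Gnat3, the G protein of the taste-type cascade, Rgs13, Nebl, Sh2d7, Siglecf, Bmx, Ptgs1 and Spib besides the 4 members. Trpm5 (5.45 to 10.8 against 9.36 to 25.1) and Sh2d6 (4.79 to 10.1 against 5.97 to 14.4) overlapped.

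**Figure D3:**
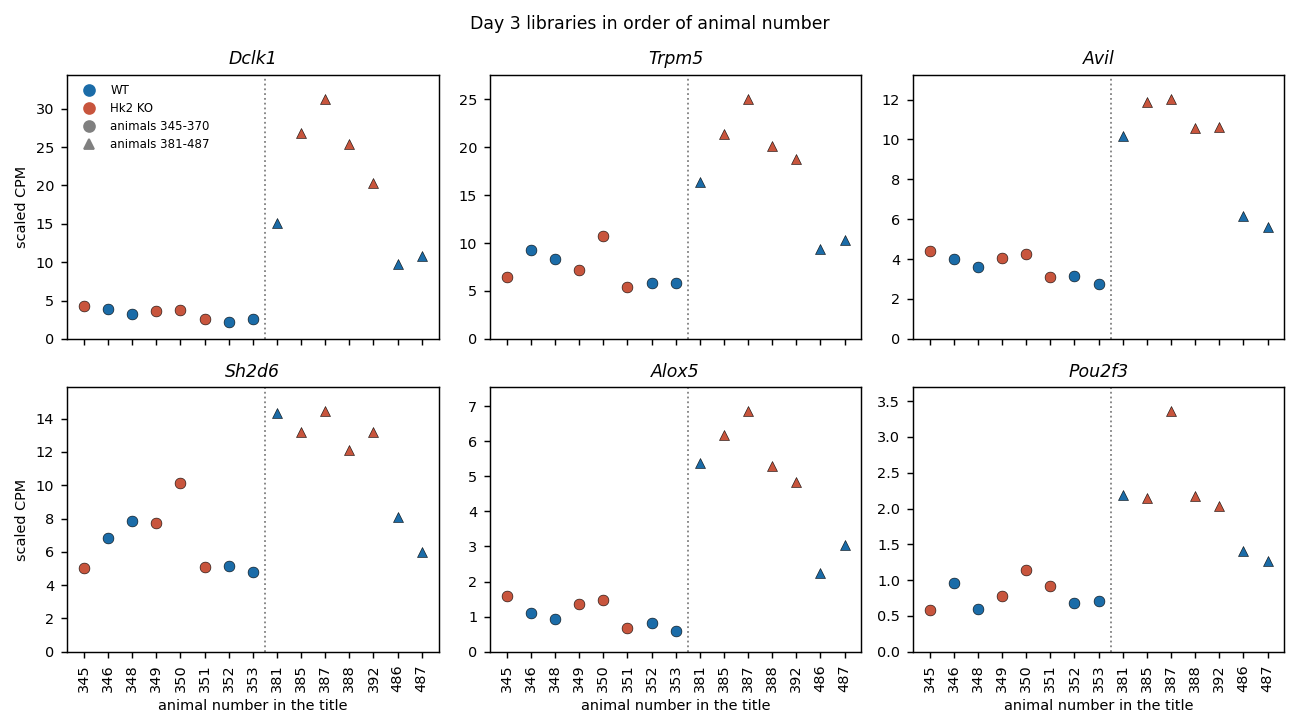
Scaled CPM (vertical axes, linear, from 0) of the 6 members with a mean of at least 1 CPM, in the 15 day 3 libraries ordered by the animal number in their titles; blue is WT, red is KO, and the dotted line lies between d3_WT_353 and d3_WT_381. Dclk1 is at 2.24 to 4.22 CPM left of the line and at 9.78 to 31.3 right of it.

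The ranges of other marker sums overlapped between the number ranges on day 3. Pan-epithelial genes summed to 16710 to 26916 CPM in the lower and to 19915 to 28278 in the higher numbers, goblet cell genes to 8946 to 19763 and 8906 to 16479, and enteroendocrine genes to 364 to 656 and 320 to 664. Pan-leukocyte genes summed to 24.8 to 59.3 and 7.57 to 43.2 CPM. Total counts were 38315332 to 50138531 and 26743715 to 50009220. On day 7 the same number ranges did not part the members: Dclk1 was at 2.97 to 5.38 CPM in the 6 libraries from d7_WT_356 to d7_WT_370 and at 2.63 to 5.99 in the 8 from d7_WT_386 to d7_WT_431, and 0 of the members were among the 69 genes (0.536%) higher or the 20 (0.155%) lower without overlap. The part of whatever the number stands for in the day 3 values was not tested.

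Taken within each number range, the day 7 against day 3 values differed in size and sign. In the lower numbers Dclk1 was at 0.29 (SE 0.23) in WT and 0.31 (SE 0.26) in KO on the log2 scale, and in the higher numbers at -1.89 (SE 0.23) and -2.52 (SE 0.20). Trpm5 was at -0.56 (SE 0.31) and -0.21 (SE 0.24) in the lower range and at -1.35 (SE 0.29) and -1.62 (SE 0.29) in the upper. Without d3_KO_345 the KO values of the lower range were 0.40 (SE 0.27) for Dclk1 and -0.27 (SE 0.24) for Trpm5. Alox5 was at 1.80 (SE 0.35) in WT and 1.15 (SE 0.32) in KO in the lower range and at -0.78 (SE 0.55) and -0.86 (SE 0.33) in the upper. Since the split was chosen with the day 3 values in view, no p is given for these, other than that Trpm5 in WT, called over all libraries, was called in neither range (adjusted p = 0.261 and 0.0535). Within the lower range the Dclk1 values were above 0 in both genotypes. The split itself placed the low day 3 values of Dclk1 in that range, so no conclusion is drawn from this.

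KO and WT were compared on each day, which asks whether loss of Hk2 in the epithelium went with a change in tuft genes. No member passed on day 0 (0 of 7, against 0.0335% of all genes called), day 3 (0 of 8, against 0.00647%), day 7 (0 of 8, against 0.00642%) or over all days with day as a term (0 of 8, against 0.0209%) with edgeR, nor with DESeq2. At an unadjusted p under 0.05 there were 2 of 7 on day 0 (10.5% of all genes), 0 of 8 on day 3 (7.88%), 1 of 8 on day 7 (12.9%) and 5 of 8 over all days (11.8%). The log2 values of KO over WT were above 0 for each tested member on each day, from 0.19 to 0.50 on day 0, 0.27 to 1.13 on day 3 and 0.01 to 0.81 on day 7; these members vary together across libraries and are not independent. Over all days the smallest p belonged to Trpm5 (0.52, SE 0.17, adjusted p = 0.332), and Dclk1 was at 0.65 (SE 0.27, adjusted p = 0.372). Without d3_KO_345 these were 0.56 (adjusted p = 0.352) and 0.69 (0.400), and without d7_KO_420 0.56 (0.203) and 0.66 (0.285). On day 3 the Dclk1 difference of 1.13 had an SE of 0.61. Without d3_KO_345 it was 1.28 (SE 0.61, adjusted p = 0.770), that of Trpm5 moved from 0.63 to 0.75, and 0 of 8 members passed.

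Within the number ranges of day 3, Hk2 itself overlapped between the genotypes in the lower numbers (96.9 to 435 CPM in KO and 97.0 to 220.5 in WT) and not in the higher (68.4 to 128 and 143 to 210.2). The genotypes also overlapped for all 6 members of at least 1 CPM in the lower numbers (0.285% of all genes were higher and 0.735% lower in KO without overlap there), where the Dclk1 difference was 0.23 (SE 0.22) and that of Trpm5 0.03 (SE 0.24). Without d3_KO_345 these were 0.14 (SE 0.23) and 0.095 (SE 0.26). In the higher numbers, the 4 KO libraries lay above the 3 WT libraries without overlap for Dclk1, Trpm5 and Avil, 3 of 6, against 10.8% of all genes, with log2 differences of 1.13 (SE 0.19), 0.83 (SE 0.21) and 0.63 (SE 0.21). None passed there either (adjusted p = 0.0769, 0.0865 and 0.130 by edgeR). The split was chosen on the day 3 values of these genes, and the members vary together across libraries. No conclusion on genotype is therefore drawn from values within the number ranges. In the higher range d3_WT_381 was next to the KO animals in number, while d3_WT_486 and d3_WT_487 were not. On day 7 Dclk1 was at 0.39 (SE 0.17, adjusted p = 0.366) and Trpm5 at 0.48 (SE 0.24, adjusted p = 0.398), or 0.41 (0.173) and 0.60 (0.108) without d7_KO_420. Of the members with a mean of at least 1 CPM on day 7, Sh2d6 alone parted the genotypes within a number range. It was lower in the 3 KO than in the 3 WT libraries of the lower numbers (5.18 to 5.81 against 6.11 to 8.92 CPM), against 7.03% of all genes. Below that mean, Ltc4s (1.01 to 3.17 in KO against 0.515 to 0.778 in WT) and Gfi1b (0.172 to 0.205 against 0.0355 to 0.156) were higher in KO without overlap in the lower numbers. Il25, near the detection floor, was lower there (at most 0.0452 against at least 0.0667). These members overlapped in the higher numbers. The shares of all genes were counted only at a mean of at least 1 CPM. None stands beside Ltc4s, Gfi1b and Il25, and with 3 libraries against 3 nothing is read from them.

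The members of at least 1 CPM moved together from animal to animal. Over the 29 libraries of days 3 and 7, Pearson's r of deviations from the group means of log2 CPM lay between 0.670 (Trpm5 and Sh2d6) and 0.954 (Dclk1 and Avil) for the 15 pairs of 6 members. The day 3 split by animal number enters these deviations, and libraries share depth and scaling, so the values are descriptive. Among 12854 genes, those most like Dclk1 were Avil, Rgs13 (r = 0.942), Sh2d7 (0.932), Dnah5 (0.917) and Nebl (0.910). Those most like Trpm5 were Pou2f3 (0.871), Siglecf (0.841), Nebl (0.836), Dclk1 and Sh2d7 (0.825), and the 5 most like Pou2f3 were Nebl and Sh2d7 (both 0.895), Dclk1 (0.893), Siglecf (0.883) and Trpm5. Among the 5 most like Avil were Dclk1, Alox5 (0.927), Rgs13 (0.915) and Sh2d7 (0.914). Among those most like Alox5 were Avil, Bmx (0.912), Pik3r5 (0.903) and Ptgs1 (0.862), and Sh2d6 was most like Matk (0.913), Sh2d7 (0.854), Prss30 (0.847), Bmx (0.834) and Ces2c (0.818). In 5 of the 6 sets at least 1 other member was among the 5 genes, and in that of Sh2d6 there was none.

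**Figure D4:**
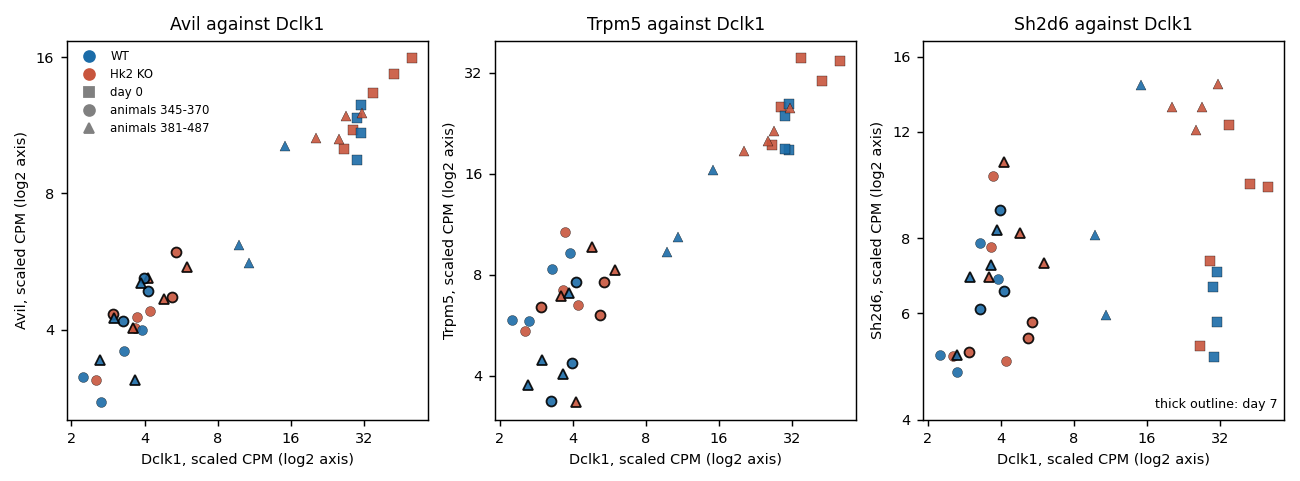
Scaled CPM of Avil, Trpm5 and Sh2d6 (vertical axes) against Dclk1 (horizontal axis) in the 38 libraries, all on log2 axes; colour gives genotype, shape gives day 0 or animal number range, and a thick outline marks day 7. Avil and Trpm5 rise with Dclk1, whereas Sh2d6 of day 0 WT libraries (5.07 to 7.03 CPM at about 30 to 31 CPM of Dclk1) lies as low as that of day 7 libraries with Dclk1 under 6.

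Among other genes of the tuft program, 7 of 8 tested in the taste-type signalling list were lower on day 7 than on day 0 in each genotype and 0 higher, against 29.2% of all genes lower in WT and 27.3% in KO, and 27.8% and 27.3% higher. Gnat3 fell by 2.37 on the log2 scale in WT (adjusted p = 0.000302) and by 2.60 in KO (adjusted p = 2.48e-07), and Itpr2, a calcium release channel also found outside tuft cells, by 1.96 (adjusted p = 2.94e-06) and 1.71 (adjusted p = 5.65e-08). Of 9 lineage regulators, 5 were lower and 0 higher in each genotype, with Hmx3 at 0.782 CPM in WT on day 0 and 0.108 on day 7 (fell by 2.81, adjusted p = 1.75e-05) and Spib at 6.73 and 3.66 (fell by 0.91, adjusted p = 0.00218). Of 19 other tuft genes, 8 were lower and 5 higher in WT, and 10 lower and 5 higher in KO. Nebl fell by 3.15 in WT (adjusted p = 9.5e-07) and 2.93 in KO (adjusted p = 9.17e-08) and Sh2d7 by 1.99 and 2.41 (adjusted p = 4.61e-06 and 4.05e-07), while Cwh43 rose by 1.61 and 1.09 (adjusted p = 9.66e-06 and 8.89e-06). The sum of a further list, 6 genes of eicosanoid synthesis, was higher on day 7. Its median went from 164 to 208 CPM in WT and from 163 to 212 in KO. Day 0 and day 7 did not overlap (147 to 183 against 190 to 226 in WT, 154 to 169 against 200 to 232 in KO). A sum is carried by its most abundant genes and does not give the direction of each. The list includes Alox5ap, described below beside leukocyte markers, and no share over all genes stands beside this sum.

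From day 3 to day 7, fewer genes of the taste-type and lineage lists were called lower than from day 0 to day 7. Of all genes, 8.70% were called lower in WT and 8.83% in KO. Taste-type genes fell in 1 of 7 in WT and 3 of 8 in KO, where Gnat3 fell by 2.02 (SE 0.55, adjusted p = 0.0155). Of 7 lineage regulators 2 fell in WT and 3 in KO, and Sox9, a factor of crypt cells at large, fell by 0.90 (adjusted p = 0.00179) and 1.07 (adjusted p = 0.00137). Lrmp fell by 1.04 in WT (adjusted p = 0.00733) and 1.35 in KO (adjusted p = 9.07e-05), whereas Cd300lf, which leukocytes also express, rose by 2.69 (adjusted p = 0.00442) and 1.72 (adjusted p = 0.00762). In the type 2 list, 5 of 8 rose and 0 fell in WT, against 10.6% of all genes called higher, and 3 of 8 rose in KO, against 10.5%; Retnlb, a goblet cell product induced by type 2 cytokines, rose by 2.33 in WT (adjusted p = 0.000125) and the receptor chain gene Il4ra by 1.31 (adjusted p = 0.000213) in WT and 1.34 (adjusted p = 0.00018) in KO. None of the 68 genes of the members and these 5 lists that were tested passed between KO and WT on any day or over all days.

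Alox5 and Ltc4s are also leukocyte genes, and summed leukocyte markers were higher on day 7 than on day 3. Summed neutrophil markers were at 7.93 to 147 CPM on day 3 and 118 to 1778 on day 7, macrophage and monocyte markers at 10.8 to 106 and 35.0 to 438, and mast cell markers at 1.26 to 4.99 and 5.52 to 43.9. Eosinophil markers stayed at 0.78 CPM or below in each group. Alox5ap, which encodes the activating protein of 5-lipoxygenase, rose from day 3 to day 7 by 3.33 in WT (SE 0.61, adjusted p = 0.00159) and 2.93 in KO (SE 0.63, adjusted p = 0.00355). On day 7 the 3 libraries with the highest Alox5, d7_KO_420, d7_WT_356 and d7_WT_419 (6.14, 4.91 and 4.60 CPM; the first is the KO library with Hk2 inside the WT range), were also the 3 with the highest neutrophil sums (1778, 1065 and 1026), and the others read 1.08 to 3.62 CPM with sums of 118 to 402. The same 3 libraries had the highest Sh2d6 of that day (10.7, 8.92 and 8.24 CPM), close above the others at 5.12 to 8.17. The 2 libraries with the highest Ltc4s, d7_KO_368 and d7_KO_366 (3.17 and 2.23), had the highest macrophage and monocyte sums (438 and 264), and the others read 0.311 to 1.01 CPM. The part of leukocyte RNA in the Alox5, Ltc4s and Sh2d6 values was not tested.

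**Figure D5:**
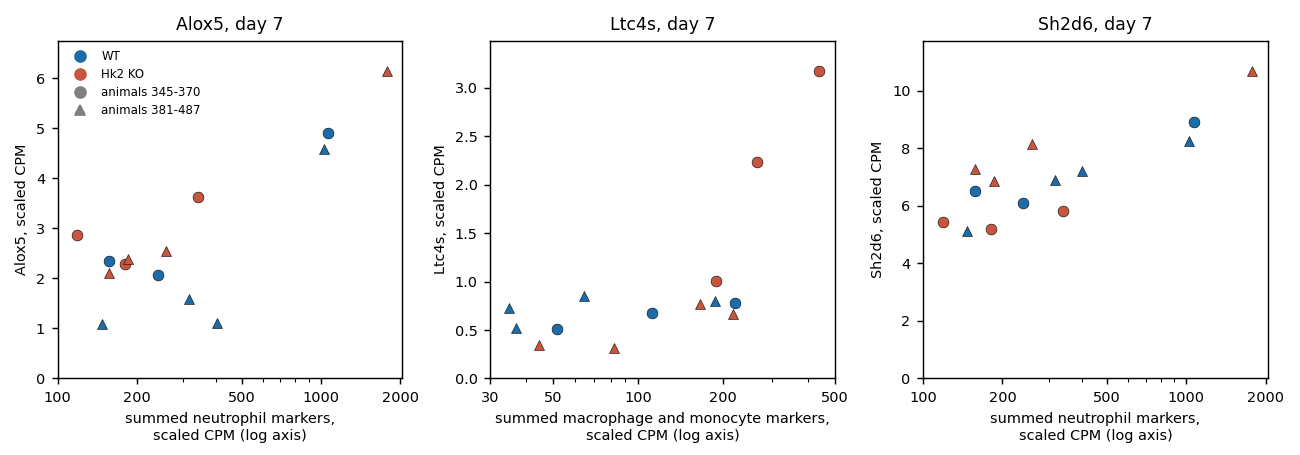
Scaled CPM of Alox5, Ltc4s and Sh2d6 (vertical axes, linear, from 0) in the 14 day 7 libraries against the summed CPM of neutrophil or of macrophage and monocyte markers (horizontal log axes); blue is WT, red is KO, and shape gives the animal number range. The highest Alox5 values, 4.60 to 6.14 CPM, are at neutrophil sums of 1026 and more, and the 2 Ltc4s values above 2 are at the highest macrophage sums.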

How the data were processed

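The deposited values are raw fragment counts per gene, made with featureCounts 1.6.2 per the file headers (1.5.2 per the submitters' processing notes), for read pairs and without regard to strand. Trim Galore, STAR and GRCm38 are named in the submitters' processing notes, and the annotation release is not given in the sources used here. The 2 lanes of each of the 38 libraries were summed (Pearson's r between lanes at least 0.989). Each comparison was fitted on its own groups with edgeR 4.0.16 (filterByExpr by group, TMM, quasi-likelihood test, R 4.3.3), with Benjamini-Hochberg adjustment over all genes tested and a threshold of 0.05. The labels number single animals, so p-values measure the spread between these animals. DESeq2 1.42.0, other scalings, other filters, 1 fit of all libraries and fits without each library were alternatives (over all days and in the interaction, without d3_KO_345 or d7_KO_420 alone). Fits by animal number range, without single day 3 or 7 libraries against day 0, and without d7_KO_420 over all days and in the interaction were added after the data were seen. The procedure was tested on simulated data. The members and lists were chosen with earlier results of these data known. All 9 members and, from each further tuft list, up to 4 genes with the smallest p were eligible to be named. 1 gene among those most like the members is not reported here. Likeness was computed over genes with a mean of at least 1 CPM on days 3 and 7. No library pair was identical.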

Additional observations from a re-analysis of the deposited data

Results flagged for a closer look

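In 8 of 54 sets of a gene's values within a group of 4 to 8 libraries, the highest or lowest library lay apart from the others by more than Dixon's 95% critical value. Chance marks about 1 in 20 such sets, and genes of 1 library are not independent. d3_WT_381 accounted for 4 of them. Its Trpm5 was at 16.4 CPM against 5.83 to 10.4 in the other 6 WT libraries, its Sh2d6 at 14.4 against 4.79 to 8.08, its Ltc4s at 1.92 against 0.375 to 0.896, and its Il25 at 0.493 against 0.0205 to 0.133, the last from 9 counts. This library had the lowest number of detected genes of all 38 (19084) and 26743715 counts in total. d0_KO_53 had Pou2f3 at 0.686 CPM against 2.48 to 2.80. On day 7, d7_KO_420 had Alox5 at 6.14 CPM against 2.11 to 3.62, d7_KO_422 had Pou2f3 at 1.02 against 0.641 to 0.805, and d7_WT_370 had Il25 at 0.184 against 0.0216 to 0.0899. d7_KO_420 also had the highest neutrophil marker sum of all libraries (1778 CPM).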

How the results depend on the processing

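Over 87 results and 1553 alternative values, 1447 stayed on the same side with the same direction, 45 newly passed, 28 no longer passed, and 33 turned sign. No member passed between KO and WT, or in the interaction, under any alternative run. The 5 WT and 6 KO members lower on day 7 than on day 0 were 5 to 6 and 6 when each library was left out in turn. Counts of members passing moved as follows. For day 7 against day 3 in WT (1), DESeq2's Wald test gave 3, pan-epithelial scaling 2, the number range as a term 2, and leaving out a library 1 to 2. In KO (3), the lower animal numbers (d3_KO_345 to d7_WT_370) alone gave 1 (Ltc4s, at 2.04, higher), the higher numbers (d3_WT_381 to d3_WT_487) alone gave 6, and leaving out a library 0 to 4. The split by number was chosen on the day 3 values, so the counts within it or with it as a term support nothing. For day 3 against day 0 in WT (3), DESeq2 gave 5, a minimum mean of 1 CPM 5, pan-epithelial scaling 6, the other 3 alternatives 4 each, by way of Alox5, and leaving out a library 3 to 6. In KO (1), DESeq2 gave 2, pan-epithelial scaling 5, 1 fit of all libraries 3, and leaving out a library 0 to 4. The cause was not tested. Log2 values that turned sign under pan-epithelial scaling were those of Sh2d6 against day 0, at -0.065 (day 3, WT), -0.20 (day 3, KO) and -0.27 (day 7, WT). Of KO against WT on day 7, Gfi1b (-0.21) and Ltc4s (-0.48) turned in the higher numbers, Alox5 (-0.085) and Sh2d6 (-0.39) in the lower numbers, and Sh2d6 (-0.017) with the range as a term. Of day 7 against day 3 in WT, Dclk1 (0.29), Avil (0.45), Ltc4s (0.41) and Sh2d6 (0.18) turned in the lower numbers and Alox5 (-0.78) in the higher numbers. In KO, Dclk1 (0.31), Avil (0.29), Gfi1b (0.034) and Alox5 (1.15) turned in the lower numbers (without d3_KO_345 0.40, 0.34 and 1.28 for Dclk1, Avil and Alox5), Ltc4s (-1.37) in the higher numbers and Alox5 (0.070) with the range as a term. Leaving out 1 library gave ranges that crossed 0 for Gfi1b (-0.093 to 0.35) and Sh2d6 (-0.11 to 0.075) between KO and WT on day 7, for Avil (-0.35 to 0.0018), Ltc4s (-0.26 to 0.19) and Sh2d6 (-0.21 to 0.091) in WT from day 3 to day 7, where d3_WT_381 was the library that turned the sign, and for Ltc4s in KO (-0.052 to 0.61), where it was d7_KO_368. No paired analysis was possible because the groups share no animal numbers. Depth limits Il25 and Gfi1b most, whose counts were 0 to 10 and 2 to 36 per library.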
